A study of Mus musculus with 12 samples.

Results

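The comparison set 3 libraries of Ocy454 cells treated with the FGF receptor inhibitor BGJ398 and fibroblast growth factor 2 (BGJ398+FGF2) against 3 libraries treated with the vehicle DMSO and the same FGF2 (DMSO+FGF2), 6 of the 12 libraries of the study, chosen by their titles. Ocy454 is a conditionally immortalised mouse line used as a model of osteocytes, the cells embedded in bone matrix. All cultures were grown to confluence, moved to 37 °C to differentiate for 5 days, given 200 nM BGJ398 or DMSO 1 h ahead of the 48 h treatment, and lysed on day 7. FGF2 was given at 2 ng/mL. The other 6 libraries had BGJ398 or DMSO without FGF2, 3 each, and serve here as the background of the inhibitor. The cells are a single line, and the labels say triplicates without saying whether these were separate cultures, so p-values measure the spread between libraries, which may be partly technical.

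FGF2 is a secreted ligand that binds the receptor tyrosine kinases FGFR1 to FGFR4 together with heparan sulphate. The activated receptors signal through the adaptor FRS2 to the ERK kinase cascade, which induces transcription factors of the ETS and AP-1 families and also its own inhibitors, the Sprouty, Spred and DUSP proteins. BGJ398 (infigratinib) occupies the kinase pocket of the FGF receptors. In cells of the bone lineage, FGF signalling is known to favour expansion and to hold back mineralising maturation, and inhibition of the receptors while FGF2 is present asks which of the transcripts seen under FGF2 need receptor activity.

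The 6 libraries held 18951710 to 25805890 reads. After a filter on low counts 12542 genes were tested, over all 12 libraries in 1 fit. Some facts of the libraries bear on every value. BGJ398+FGF2 replicate 2 stood apart on the second principal component, at −32.7 against 1.92 and 5.27 for replicates 1 and 3, and DMSO+FGF2 replicate 2 lay at −14.4 against 2.09 and 9.5 for the others. Together with BGJ398 replicate 1 these 2 libraries are the 3 that deviated together from their groups; pairs of replicates that include one of them differed by 11.5 to 25.5 times the counting noise, and all other pairs by 3.26 to 6.1 times. The mitochondrially encoded share of reads was 1.88% to 2.11% in BGJ398+FGF2 and 1.76% to 1.79% in DMSO+FGF2. Defining osteocyte genes were absent or scarce: Sost and Mepe had 0 reads in all 12 libraries, Dmp1 had 26 and Fgf23 had 6, whereas the early osteocyte marker Pdpn (podoplanin) was measured in every library. The osteoblast markers Col1a1, Sparc, Runx2 and Sp7 were present throughout. Markers of other cell types were mixed. Adipoq, Myod1, Myog, Tnmd and Adgre1 had 0 reads and Ptprc had 2, whereas Sox9, Matn3, Fmod, Cd68 and Lyz2 were above the filter. The measured cells carried osteoblast and early osteocyte transcripts and few or none of the late osteocyte ones.

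With BGJ398 present, FGF2-treated cells had more RNA for many bone matrix and osteoblast genes and less for many glycolytic enzymes, endoplasmic reticulum chaperones and ERK feedback genes. By edgeR's quasi-likelihood test 2782 of 12542 genes (22.2%) passed an adjusted p of 0.05, 1355 higher (10.8%) and 1427 lower (11.4%) in BGJ398+FGF2. The changes were mostly moderate, with a median size of 0.36 on the log2 scale among called genes, and 263 genes (2.1%) changed at least 2-fold, 123 higher (0.981%) and 140 lower (1.12%). In 4368 of the 12542 genes (34.8%) the BGJ398+FGF2 libraries did not overlap the DMSO+FGF2 libraries, which is the background for each statement on overlap; the choice of the genes named for the size of their change required it. Without the 3 deviating libraries, a setting added after seeing the data, 1743 genes were higher and 1948 lower. A fit to the 6 libraries alone, with fewer degrees of freedom, called 1794 and length-scaled TPM called 1813. A length offset called 3719, 1954 higher and 1765 lower. In bulk RNA, fewer cells of a type and less RNA per cell cannot be told apart. The counts by gene list below have as background the shares over all genes tested, 10.8% higher and 11.4% lower. The lists and their members were chosen with earlier results of these data known. Their counts therefore describe these libraries and are not independent support.

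**Figure D1:**
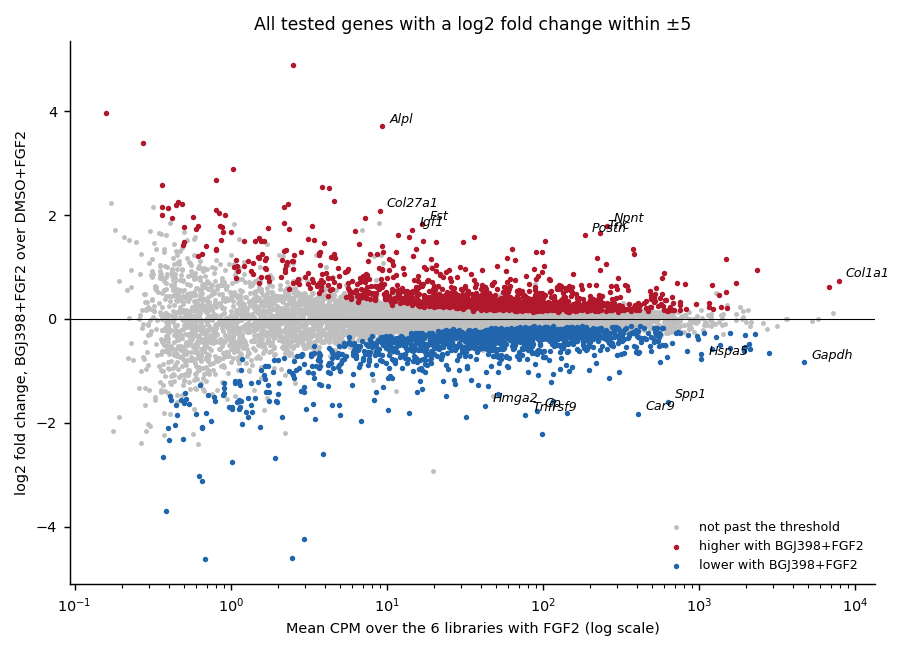
Each point is 1 tested gene, with its mean CPM over the 6 libraries with FGF2 on a log axis and its log2 fold change, BGJ398+FGF2 over DMSO+FGF2. Red and blue mark genes past an adjusted p of 0.05, higher and lower in BGJ398+FGF2, grey the rest. Alpl has the highest log2 fold change of the labelled genes at 3.71, and Tnfrsf9 and Car9 the lowest at −1.85 and −1.83. The 15 genes beyond ±5 are not drawn.

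The receptors themselves moved in opposite directions. Of 15 tested FGF receptors and co-receptors, 6 rose and 1 fell, and the median log2 fold change was 0.20, beside 0.0046 over all genes tested. Fgfr2, which in bone marks osteoprogenitors and osteoblasts, had 135, 124 and 149 CPM in the BGJ398+FGF2 libraries, against 70.6, 62.5 and 69.5 CPM in the DMSO+FGF2 libraries. All 3 inhibitor libraries lay above all 3 vehicle libraries (log2 fold change 1.01 ± 0.07, adjusted p = 4.54e-07). Fgfr1, the main receptor of later osteoblasts and osteocytes, had 229, 216 and 253 CPM in the BGJ398+FGF2 libraries, against 306, 336 and 319 CPM in the DMSO+FGF2 libraries. It fell without overlap, with a log2 fold change of −0.46 ± 0.06, adjusted p = 0.000154. Fgfr3 did not pass the test, with 28.6 ± 1.9 CPM in BGJ398+FGF2 and 24.8 ± 3.1 CPM in DMSO+FGF2 (log2 fold change 0.21 ± 0.10, adjusted p = 0.143). Flrt3, a membrane protein that binds FGF receptors, rose to 14.3 ± 2.1 CPM in BGJ398+FGF2, against 6.41 ± 1.4 CPM in DMSO+FGF2. Gpc1, a glypican that carries heparan sulphate, rose by 0.47 ± 0.07 on the log2 scale. Fgfr4 was below the filter, as were Kl and Klb, the genes of co-receptors used by the hormone-like FGFs.

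Of the 6 tested members of the ligand list, which also holds the gene of the binding protein Fgfbp3, 2 rose and 1 fell. Fgf18, a ligand made in the osteogenic lineage, had 6.20, 5.70 and 6.49 CPM in the BGJ398+FGF2 libraries, against 1.95, 3.20 and 2.90 CPM in the DMSO+FGF2 libraries, a log2 fold change of 1.20 ± 0.22, adjusted p = 0.00179. Fgf5 was much scarcer, at 0.860, 1.18 and 0.711 CPM in the BGJ398+FGF2 libraries, against 0.195, 0.213 and 0.285 CPM in the DMSO+FGF2 libraries, and also rose (1.97 ± 0.39, adjusted p = 0.00319). Both ligands were higher in every inhibitor library than in any vehicle library. Fgf7 fell, with a log2 fold change of −0.27 ± 0.09 on the log2 scale, adjusted p = 0.0483, and this call was lost in 12 of 23 other settings. The Fgf2 transcript of the cells, as distinct from the added protein, was at 8.85 ± 2.5 CPM in BGJ398+FGF2 and 11.9 ± 1.5 CPM in DMSO+FGF2 and did not pass (adjusted p = 0.0974).

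Among genes that report ERK activity more fell than rose with the inhibitor. Of 31 tested members of the feedback and target list 18 fell and 6 rose, with a median log2 fold change of −0.34. Dusp4, a nuclear phosphatase of ERK, had 2.58, 1.88 and 2.70 CPM in the BGJ398+FGF2 libraries, against 7.66, 7.97 and 7.04 CPM in the DMSO+FGF2 libraries. Dusp6, the cytoplasmic ERK phosphatase, had 12.1, 14.7 and 14.7 CPM in the BGJ398+FGF2 libraries, against 25.8, 24.3 and 21.8 CPM in the DMSO+FGF2 libraries. Both sets of inhibitor libraries lay below the vehicle libraries, with log2 fold changes of −1.65 ± 0.15 and −0.80 ± 0.13. Etv4 and Etv5, ETS factors that are classical FGF targets, fell, with log2 fold changes of −1.25 ± 0.23 and −0.85 ± 0.10, and Etv5 had 10.1, 9.36 and 9.28 CPM in the BGJ398+FGF2 libraries, against 16.1, 18.4 and 17.4 CPM in the DMSO+FGF2 libraries. Of the Sprouty genes Spry2 fell, with a log2 fold change of −0.52 ± 0.13. A share of 30.3% of the 31-base words of Etv5 also occurs in other genes. Spry4 was rare, at 0.407, 0.431 and 0.758 CPM in the BGJ398+FGF2 libraries and 1.21, 0.980 and 1.62 CPM in the DMSO+FGF2 libraries, and the call behind its log2 fold change of −1.24 ± 0.35 was lost in 4 of 22 other settings, among them leaving out DMSO+FGF2 replicate 3 (adjusted p = 0.0934), BGJ398+FGF2 replicate 1 (0.0913) or BGJ398+FGF2 replicate 2 (0.0581). Fosl1, an AP-1 subunit, fell, with a log2 fold change of −1.57 ± 0.14, although 54.5% of its sequence words of 31 bases also occur in other genes, so its level is uncertain.

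Other growth-response genes of the same list went up. Myc had 107, 114 and 115 CPM in the BGJ398+FGF2 libraries, against 79.1, 78.3 and 78.4 CPM in the DMSO+FGF2 libraries, and all inhibitor libraries were higher (log2 fold change 0.51 ± 0.05, adjusted p = 2.01e-05). Egr1, an immediate early gene, had 187, 174 and 211 CPM in the BGJ398+FGF2 libraries, against 148, 128 and 133 CPM in the DMSO+FGF2 libraries, with a log2 fold change of 0.48 ± 0.08, adjusted p = 0.000723. Ccnd1, the gene of cyclin D1, rose by 0.27 ± 0.07, and lost its call when DMSO+FGF2 replicate 1 (adjusted p = 0.0719), DMSO+FGF2 replicate 3 (0.0904) or BGJ398+FGF2 replicate 1 (0.0638) was left out. Genes of the ERK list that are often described together did not share 1 direction in these libraries at 48 h.

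Many osteoblast genes rose with the inhibitor. Of 22 tested members 13 rose and 1 fell, and the median log2 fold change was 0.68. Alpl, which encodes the alkaline phosphatase that clears the mineralization inhibitor pyrophosphate, had 18.1, 15.8 and 18.3 CPM in the BGJ398+FGF2 libraries, against 1.29, 1.58 and 1.09 CPM in the DMSO+FGF2 libraries. The log2 fold change was 3.71 ± 0.13, adjusted p = 1.89e-09, and the groups were far from overlap. Ibsp, bone sialoprotein, a nucleator of mineral that was noted after its values were seen, had 101 reads over the 3 BGJ398+FGF2 libraries and 1 read over the 3 DMSO+FGF2 libraries. Sp7, the transcription factor osterix that commits cells to the osteoblast fate, had 23.3, 26.3 and 26.5 CPM in the BGJ398+FGF2 libraries, against 8.36, 8.23 and 10.2 CPM in the DMSO+FGF2 libraries (1.51 ± 0.10, adjusted p = 4.54e-07). Runx2, the factor that acts upstream of Sp7, was at 117 ± 17 CPM in BGJ398+FGF2 and 98.7 ± 7.7 CPM in DMSO+FGF2 and did not pass (adjusted p = 0.0687), but passed in 5 other settings, among them without BGJ398+FGF2 replicate 2 (adjusted p = 0.00612). Sparc, the matrix protein osteonectin, rose by 0.94 ± 0.05, with 3072, 3245 and 2963 CPM in the BGJ398+FGF2 libraries, against 1576, 1643 and 1602 CPM in the DMSO+FGF2 libraries. Dlx5, a homeobox activator of Sp7 that was also noted after its values were seen, averaged 26.5 ± 1.8 CPM in BGJ398+FGF2 and 11.9 ± 1.1 CPM in DMSO+FGF2, and rose (1.16 ± 0.09, adjusted p = 1.49e-06). Bglap and Bglap2 did not pass, at 0.37 ± 0.45 and 0.37 ± 0.23 (adjusted p = 0.61 and 0.274). Without the 3 deviating libraries 14 members rose. The member that fell was Spp1, the gene of osteopontin, an acidic phosphoprotein that restrains crystal growth. Spp1 had 285, 355 and 309 CPM in the BGJ398+FGF2 libraries, against 943, 1056 and 870.0 CPM in the DMSO+FGF2 libraries, a log2 fold change of −1.60 ± 0.09, adjusted p = 4.53e-08.

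**Figure D2:**
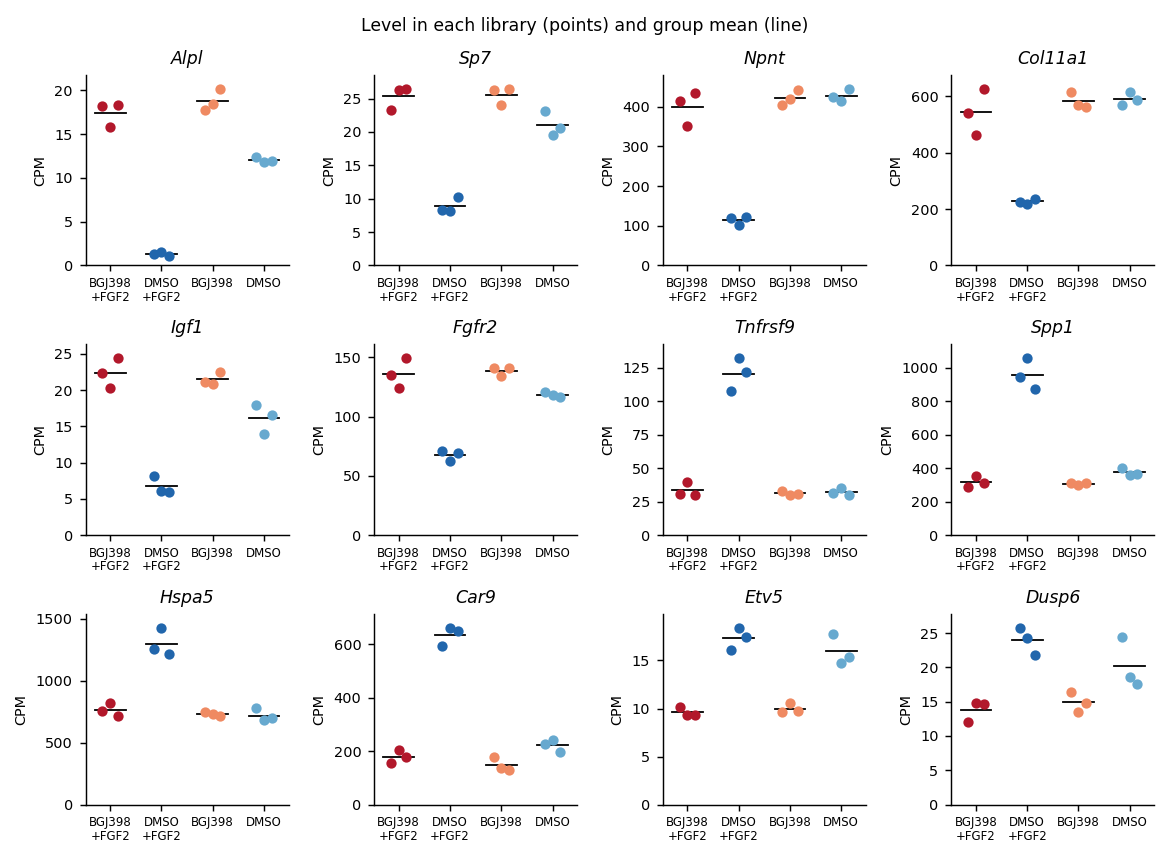
Levels of 12 genes in CPM on linear axes from 0, with 1 point per library and a line at the mean of 3 libraries, in the order BGJ398+FGF2, DMSO+FGF2, BGJ398 and DMSO. In each panel the 3 BGJ398+FGF2 libraries lie apart from the 3 DMSO+FGF2 libraries, above them for Alpl, Sp7, Npnt, Col11a1, Igf1 and Fgfr2 and below them for Tnfrsf9, Spp1, Hspa5, Car9, Etv5 and Dusp6.

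The genes of mineral handling moved in both directions. Of 15 tested members 4 rose and 8 fell (median −0.17). Beside Alpl, Smpd3, a sphingomyelinase needed for bone mineral, had 6.06, 3.87 and 5.45 CPM in the BGJ398+FGF2 libraries, against 1.41, 1.41 and 1.62 CPM in the DMSO+FGF2 libraries (1.80 ± 0.21, adjusted p = 5.57e-05). Enpp1, which makes pyrophosphate and so opposes Alpl, had 21.1, 19.5 and 22.8 CPM in the BGJ398+FGF2 libraries, against 45.5, 48.5 and 50.5 CPM in the DMSO+FGF2 libraries (−1.19 ± 0.08, adjusted p = 6.42e-07). Enpp1 lay lower in every inhibitor library. Phex, a protease of phosphate control in osteocytes, was at 0.512 ± 0.17 CPM in BGJ398+FGF2 and 0.338 ± 0.16 CPM in DMSO+FGF2 and did not pass (adjusted p = 0.385). Among 12 tested osteocyte genes 2 rose and 4 fell. The 4 include Hyou1, a chaperone gene that is also counted in the unfolded protein response list below. Pdpn fell, with a log2 fold change of −0.43 ± 0.08, with 28.4, 32.3 and 25.8 CPM in the BGJ398+FGF2 libraries, against 38.2, 39.6 and 38.8 CPM in the DMSO+FGF2 libraries, as did Capg, an actin-capping protein, with a log2 fold change of −0.60 ± 0.11. Irx5, a homeobox gene of osteocytes and osteoblasts, rose by 0.80 ± 0.09.

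Many collagen genes rose. Of 18 tested fibrillar and fibril-associated collagen genes 13 rose and none fell, and the median log2 fold change was 0.57. Col1a1, the main chain of bone collagen, had 9091, 9657 and 10836 CPM in the BGJ398+FGF2 libraries, against 5514, 6736 and 5486 CPM in the DMSO+FGF2 libraries. Its log2 fold change was 0.74 ± 0.09, adjusted p = 8.95e-05. Col11a1, which sets fibril diameter, had 541, 464 and 627 CPM in the BGJ398+FGF2 libraries, against 226, 219.8 and 236 CPM in the DMSO+FGF2 libraries (1.26 ± 0.09, adjusted p = 5.51e-07). Col12a1, a fibril-associated collagen of load-bearing tissue, rose by 1.35 ± 0.13, Col3a1 by 0.69 ± 0.06, and Col27a1, a fibrillar collagen of cartilage, by 2.08 ± 0.16.

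The machinery that folds and trims collagen did not move as 1 block: of 29 tested genes 9 rose and 6 fell. The rotamases Fkbp10 and Fkbp14, which assist folding of the triple helix, rose by 0.52 ± 0.06 and 0.57 ± 0.07. Pcolce2, an enhancer of procollagen trimming, had 3.89, 3.98 and 2.89 CPM in the BGJ398+FGF2 libraries, against 0.664, 1.02 and 0.714 CPM in the DMSO+FGF2 libraries (2.16 ± 0.27, adjusted p = 8.78e-05). Adamts2, the protease that removes the amino-terminal propeptide, fell, with a log2 fold change of −0.60 ± 0.08. Of 20 basement membrane genes 9 rose and 2 fell, with Col4a1 at 0.63 ± 0.08, the linker Nid2 at 0.53 ± 0.06, the peroxidase Pxdn at 0.47 ± 0.06 and the laminin chain Lama4 at 0.61 ± 0.08.

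Among glycoproteins of the pericellular matrix more rose than fell. Of 23 tested matricellular genes 13 rose and 4 fell (median 0.45). Npnt, nephronectin, an integrin ligand that supports osteoblast differentiation, had 415, 350.2 and 434 CPM in the BGJ398+FGF2 libraries, against 120.5, 103 and 121 CPM in the DMSO+FGF2 libraries (1.80 ± 0.08, adjusted p = 1.64e-08). Postn, periostin of the periosteum, had 289, 267 and 282 CPM in the BGJ398+FGF2 libraries, against 86.7, 86.5 and 101 CPM in the DMSO+FGF2 libraries (1.61 ± 0.07, adjusted p = 5.21e-09). Tnc, tenascin C, had 345, 315 and 409 CPM in the BGJ398+FGF2 libraries, against 113, 114 and 109.9 CPM in the DMSO+FGF2 libraries (1.66 ± 0.08, adjusted p = 2.87e-08). Hmcn1, which encodes the large matrix protein hemicentin, was outside the lists and rose to 11.5 ± 4.1 CPM in BGJ398+FGF2, against 3.01 ± 0.64 CPM in DMSO+FGF2 (1.95 ± 0.26, adjusted p = 0.000167).

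Among small leucine-rich proteoglycans, which bind collagen fibrils, 5 of 12 rose and 1 fell. Fmod, fibromodulin, had 2000.2, 2113 and 2115 CPM in the BGJ398+FGF2 libraries, against 933, 912 and 941 CPM in the DMSO+FGF2 libraries (1.16 ± 0.05, adjusted p = 5.21e-09). Aspn, asporin, rose by 1.48 ± 0.09, Omd, osteomodulin of bone, by 1.35 ± 0.11 and Ogn, osteoglycin, by 0.64 ± 0.08. Of 17 elastic fibre genes 7 rose and 4 fell, and the 4 became 2 when DMSO+FGF2 replicate 2 or BGJ398+FGF2 replicate 1 was left out. Eln, elastin itself, had 6.47, 6.24 and 7.06 CPM in the BGJ398+FGF2 libraries, against 0.976, 0.938 and 1.52 CPM in the DMSO+FGF2 libraries, a log2 fold change of 2.54 ± 0.24, adjusted p = 1.15e-05. The microfibril genes Mfap4 and Fbn2 rose by 2.21 ± 0.24 and 1.02 ± 0.12, and Fbln5, which tethers elastin to cells, by 0.66 ± 0.05.

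Matrix receptors and proteases were mixed. Of 16 integrin subunits 5 rose and 7 fell, with 4 falling when DMSO+FGF2 replicate 1, DMSO+FGF2 replicate 2 or BGJ398+FGF2 replicate 1 was left out. The collagen-binding α subunits Itga1 and Itga11 rose by 0.87 ± 0.09 and 0.51 ± 0.06, while the laminin-binding Itga3 and Itga6 fell, with log2 fold changes of −0.32 ± 0.06 and −0.49 ± 0.08. Of 29 proteases and inhibitors 8 rose and 5 fell, the 5 becoming 3 when DMSO+FGF2 replicate 2 or 3 was left out. Adam12, a metalloprotease of mesenchymal cells, had 19.7, 15.5 and 18.2 CPM in the BGJ398+FGF2 libraries, against 5.35, 5.33 and 6.90 CPM in the DMSO+FGF2 libraries (1.61 ± 0.12, adjusted p = 1.49e-06). Adamts1 rose by 0.56 ± 0.08 and Mmp19 fell, with a log2 fold change of −0.68 ± 0.05. Of 23 YAP and SRF target genes 10 rose and 3 fell: the smooth muscle actin gene Acta2 was at 0.88 ± 0.08, Thbs1 at 0.70 ± 0.08, the tissue factor gene F3 at 0.61 ± 0.06 and the receptor kinase gene Axl at −0.45 ± 0.05.

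**Figure D3:**
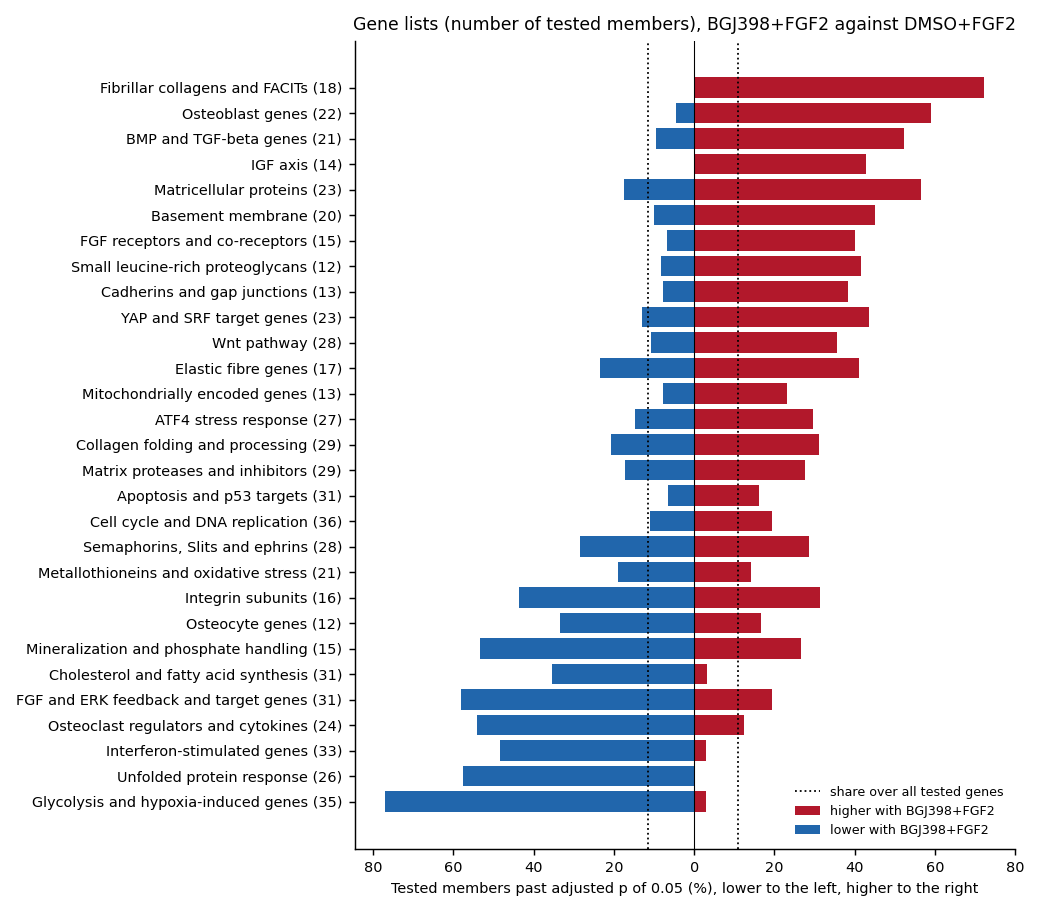
For each gene list with at least 10 tested members, the bars give the percentage of tested members past an adjusted p of 0.05, higher in BGJ398+FGF2 to the right in red and lower to the left in blue. Dotted lines mark the share over all tested genes, 10.8% higher and 11.4% lower. Fibrillar collagens head the page with 13 of 18 members higher, and glycolysis and hypoxia genes end it with 27 of 35 lower.

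In the lists of the insulin-like growth factor axis and of BMP and TGF-beta genes more members rose than fell. Of 14 genes of the insulin-like growth factor axis 6 rose and none fell, 9 rising without BGJ398+FGF2 replicate 2. Igf1, a growth factor stored in bone matrix, had 22.4, 20.3 and 24.4 CPM in the BGJ398+FGF2 libraries, against 8.20, 6.14 and 5.99 CPM in the DMSO+FGF2 libraries (1.72 ± 0.13, adjusted p = 1.24e-06). Its binding proteins Igfbp5 and Igfbp2 rose, Igfbp5 by 1.30 ± 0.07 and Igfbp2 to 153 ± 25 CPM in BGJ398+FGF2, against 54.1 ± 6.8 CPM in DMSO+FGF2, and Pappa2, a protease that cleaves such binding proteins, by 1.58 ± 0.12. Of 21 BMP and TGF-beta genes 11 rose and 2 fell. Fst, follistatin, a secreted trap for activins, had 26.4, 27.1 and 25.7 CPM in the BGJ398+FGF2 libraries, against 7.19, 7.29 and 7.71 CPM in the DMSO+FGF2 libraries (1.84 ± 0.10, adjusted p = 4.53e-08). Inhba, which encodes the activin A chain that follistatin binds, also rose (0.76 ± 0.10), as did Tgfb3 (0.97 ± 0.06), while the co-receptor Tgfbr3 fell (−0.65 ± 0.08).

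In the Wnt pathway 10 of 28 genes rose and 3 fell, 5 falling without the 3 deviating libraries. Rspo2, an enhancer of Wnt receptors, had 12.3, 11.1 and 13.2 CPM in the BGJ398+FGF2 libraries, against 6.41, 4.13 and 4.85 CPM in the DMSO+FGF2 libraries (1.25 ± 0.14, adjusted p = 4.49e-05). The ligand gene Wnt4 rose by 1.75 ± 0.25 and the extracellular Dkk3 fell, with a log2 fold change of −0.59 ± 0.06. Lgr6, an R-spondin receptor, had 0.815, 1.51 and 0.995 CPM in the BGJ398+FGF2 libraries, against 5.39, 7.29 and 7.28 CPM in the DMSO+FGF2 libraries, a log2 fold change of −2.60 ± 0.26, adjusted p = 1.53e-05. Ptgfr, the receptor of prostaglandin F, was in no list and rose to 20.8 ± 2.3 CPM in BGJ398+FGF2, against 6.88 ± 1.2 CPM in DMSO+FGF2.

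Many chaperones of the endoplasmic reticulum fell with the inhibitor. Of 26 tested genes of the unfolded protein response 15 fell and none rose (median log2 fold change −0.39). Hyou1, a large chaperone of the lumen, had 199, 206 and 208 CPM in the BGJ398+FGF2 libraries, against 426, 422 and 391 CPM in the DMSO+FGF2 libraries (−1.02 ± 0.05, adjusted p = 2.08e-08). Sdf2l1, a partner of BiP, had 24.8, 34.3 and 24.6 CPM in the BGJ398+FGF2 libraries, against 71.1, 86.5 and 69.2 CPM in the DMSO+FGF2 libraries (−1.44 ± 0.12, adjusted p = 3.89e-06). Creld2 and the disulphide isomerase Pdia4 fell, with log2 fold changes of −1.21 ± 0.10 and −0.69 ± 0.05. Members that did not pass include Xbp1 (−0.09 ± 0.08), Edem1 (−0.09 ± 0.07), Canx (−0.06 ± 0.05) and Dnajc10 (0.06 ± 0.05). Of 27 ATF4 target genes, induced by amino acid shortage, 8 rose and 4 fell, with 4 rising without DMSO+FGF2 replicate 3 and 7 falling without the 3 deviating libraries. There Asns, asparagine synthetase, was at 0.56 ± 0.07, the amino acid carrier Slc7a5 at 0.40 ± 0.05, Mthfd2 at 0.40 ± 0.06 and Nupr1 at −0.61 ± 0.10, and Atf4 itself, at 0.00 ± 0.08, did not pass.

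The endoplasmic reticulum stress element, written CCAAT and CCACG with any 9 bases between them, is bound by NF-Y and ATF6 in promoters of such chaperones. It was searched on both strands in RefSeq promoters of build GRCm38.p6, from 250 bases before to 50 after the start. Of the 26 tested members 22 had a promoter in that table, and 8 of them (36.4%) held the element, against 37 of 27025 genes (0.137%) and 0.119% of 32851 promoters. The element is known from promoters of such chaperones, so this share describes the list and not the inhibitor's effect. Of the 13 matched members that fell, 6 held the element: Hspa5, Hsp90b1, Dnajc3, Creld2, Calr and Syvn1. The 250 bases before the start are shown for 4 of these, with the element in capitals, to show where in the promoter it lies.
Hspa5 (chr2:34771840-34772089, plus strand): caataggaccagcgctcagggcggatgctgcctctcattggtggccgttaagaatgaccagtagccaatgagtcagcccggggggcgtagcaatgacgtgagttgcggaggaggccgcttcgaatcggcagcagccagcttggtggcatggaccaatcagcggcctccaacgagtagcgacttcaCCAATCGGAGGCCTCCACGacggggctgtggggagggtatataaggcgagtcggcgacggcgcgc
Hsp90b1 (chr10:86705445-86705694, minus strand): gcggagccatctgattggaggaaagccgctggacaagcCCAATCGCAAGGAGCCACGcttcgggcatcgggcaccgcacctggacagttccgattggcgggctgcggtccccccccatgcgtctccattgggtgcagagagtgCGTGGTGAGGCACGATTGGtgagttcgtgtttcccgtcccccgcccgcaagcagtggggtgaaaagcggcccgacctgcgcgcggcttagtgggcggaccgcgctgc
Creld2 (chr15:88819396-88819645, plus strand): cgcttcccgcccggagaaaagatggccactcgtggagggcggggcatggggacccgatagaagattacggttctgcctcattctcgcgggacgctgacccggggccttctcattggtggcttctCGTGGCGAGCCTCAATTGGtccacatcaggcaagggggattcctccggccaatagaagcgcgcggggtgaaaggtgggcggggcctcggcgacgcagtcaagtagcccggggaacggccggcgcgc
Calr (chr8:84846932-84847181, minus strand): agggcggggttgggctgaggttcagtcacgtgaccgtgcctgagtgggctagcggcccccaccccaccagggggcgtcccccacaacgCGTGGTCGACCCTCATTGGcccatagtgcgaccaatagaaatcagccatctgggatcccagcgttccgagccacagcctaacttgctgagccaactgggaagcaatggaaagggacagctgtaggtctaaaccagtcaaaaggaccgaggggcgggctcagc
Hsp90b1 holds the element at 2 places. Hspa5, the gene of the chaperone BiP, had 758, 823 and 716 CPM in the BGJ398+FGF2 libraries, against 1254, 1428 and 1216 CPM in the DMSO+FGF2 libraries (−0.76 ± 0.07, adjusted p = 1.17e-05). Hsp90b1, which encodes the chaperone GRP94, was at −0.67 ± 0.07 and Calr, calreticulin, at −0.49 ± 0.08. These 3 genes were chosen for their promoters after their values were seen. The element was also found in Pdia6 and Canx, which did not pass the test, and a match describes letters in this window, not binding.

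Most glycolytic and hypoxia-induced genes fell in BGJ398+FGF2: 27 of 35 tested members fell and 1 rose, with a median log2 fold change of −0.51. Car9, a carbonic anhydrase of the cell surface induced by HIF-1, had 154, 203 and 179 CPM in the BGJ398+FGF2 libraries, against 593, 662 and 649.8 CPM in the DMSO+FGF2 libraries (−1.83 ± 0.12, adjusted p = 3.79e-07). Gpi1, glucose-6-phosphate isomerase, had 371, 457 and 381 CPM in the BGJ398+FGF2 libraries, against 635, 797 and 727 CPM in the DMSO+FGF2 libraries (−0.84 ± 0.10, adjusted p = 8.43e-05). For both genes the highest inhibitor library was below the lowest vehicle library. Ndrg1, a stress-induced gene, fell, with a log2 fold change of −0.69 ± 0.09. Adm, the vasodilator adrenomedullin, was scarce, with 0.453, 0.484 and 0.616 CPM in the BGJ398+FGF2 libraries, against 2.27, 4.05 and 3.71 CPM in the DMSO+FGF2 libraries (−2.67 ± 0.30, adjusted p = 3.7e-05). Tpi1, triosephosphate isomerase, varied between libraries, at 6.74, 15.6 and 18.9 CPM in BGJ398+FGF2 and 55.5, 57.3 and 38.7 CPM in DMSO+FGF2, and its call was lost without BGJ398+FGF2 replicate 1 (adjusted p = 0.067). Pfkm (−0.07 ± 0.07) and Slc2a3 (−0.15 ± 0.10) were among those that did not pass.

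The core of the hypoxia response element, ACGTG on either strand, is a short motif and common. It lay in 21 of the 32 members with a RefSeq promoter (65.6%), against 21.8% of all genes and 19.6% of all promoters of the same length. The list includes genes known to be induced by hypoxia, so this share describes the list and not the inhibitor's effect. The core lay in 16 of the 26 matched members that passed the test. It also lay in Pfkm, Pfkfb3, Aldoc, Slc16a3 and Bnip3, which did not pass, so it was not particular to members that changed. The ACGTG core can lie inside the longer stress element, and 7 of 40 matches of that element overlapped it. Ldha, lactate dehydrogenase A, and Car9 are shown, with each match in capitals, because Ldha has several sites and Car9 a single site close to the start.
Ldha (chr7:46845554-46845803, plus strand): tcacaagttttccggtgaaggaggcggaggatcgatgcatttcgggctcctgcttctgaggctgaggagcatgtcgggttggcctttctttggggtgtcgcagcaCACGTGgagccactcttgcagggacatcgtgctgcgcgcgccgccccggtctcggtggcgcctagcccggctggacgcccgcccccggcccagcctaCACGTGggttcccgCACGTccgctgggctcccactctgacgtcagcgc
Car9 (chr4:43506776-43507025, plus strand): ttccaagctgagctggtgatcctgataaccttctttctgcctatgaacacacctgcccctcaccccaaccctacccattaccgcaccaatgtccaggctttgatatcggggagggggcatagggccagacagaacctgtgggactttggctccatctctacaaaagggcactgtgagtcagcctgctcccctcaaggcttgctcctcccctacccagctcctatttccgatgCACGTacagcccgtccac
Ldha, chosen for its promoter after its value was seen, had 1608, 2022 and 1626 CPM in the BGJ398+FGF2 libraries, against 2229, 2669 and 2426 CPM in the DMSO+FGF2 libraries, and it fell, with a log2 fold change of −0.48 ± 0.11, adjusted p = 0.00686. Binding of HIF-1 was not measured. The ACGTG core lay in 39.1% of matched members of the ATF4 list, 31.8% of the unfolded protein response list and 25.0% of the ERK list. It lay in 21.4% of the collagen, 8.33% of the osteoblast and 3.7% of the interferon list. Of 20 matched ERK list members, 2 held the AP-1 motif TGANTCA and 0 the ETS motif CCGGAAG (8.97% and 9.93% of all genes). The CARE motif TTGCATCA was in 6 of 23 matched ATF4 members (1.03% of all genes), and in 1 of the 11 that passed.

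More cytokine and interferon-stimulated genes fell than rose. Of 24 osteoclast regulators and cytokines 13 fell and 3 rose (median −0.33), with 8 falling without BGJ398+FGF2 replicate 1. Tnfrsf9, the co-stimulatory receptor CD137, had 30.5, 39.9 and 30.1 CPM in the BGJ398+FGF2 libraries, against 108, 132 and 122 CPM in the DMSO+FGF2 libraries (−1.85 ± 0.11, adjusted p = 1.33e-07). Tnfrsf1b, TNF receptor type II, fell, with a log2 fold change of −1.02 ± 0.08. Tnfrsf19, a receptor of the same superfamily, went the other way, with 10.2, 9.74 and 8.62 CPM in the BGJ398+FGF2 libraries, against 2.93, 2.64 and 3.28 CPM in the DMSO+FGF2 libraries (1.69 ± 0.14, adjusted p = 2.69e-06). Of 33 interferon-stimulated genes 16 fell and 1 rose (median −0.37). Zbp1, a sensor of nucleic acids, had 2.62, 3.50 and 2.37 CPM in the BGJ398+FGF2 libraries, against 10.5, 13.4 and 8.94 CPM in the DMSO+FGF2 libraries (−1.96 ± 0.19, adjusted p = 1.04e-05), and Irf1, Irf7 and Gbp2 fell, with log2 fold changes of −0.64 ± 0.07, −0.71 ± 0.12 and −0.74 ± 0.12. Usp18 (0.04 ± 0.15) and Mx2 (−0.02 ± 0.22), which are also induced by interferon, did not pass.

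Macrophage markers were checked beside this result. Of 10 such markers 4 were above the filter and 2 passed, Cd68 lower (−1.30 ± 0.22) and Lyz2 higher (1.77 ± 0.39). A share of 32.8% of the 31-base words of Lyz2 also occurs in other genes. The summed level of the 4 was 5.57 to 7.32 CPM in BGJ398+FGF2 and 8.66 to 10.9 CPM in DMSO+FGF2. The defining markers Adgre1 and Tyrobp had 0 reads in all libraries. The part of the macrophage markers in the cytokine and interferon values was not tested. Of 6 tested chondrocyte markers 1 rose (Matn3, 2.51 ± 0.15) and 1 fell (Sox9, −0.76 ± 0.11), with Cnmd at 0 reads and summed levels of 36.4 to 50.6 CPM in BGJ398+FGF2 and 44.9 to 47.7 CPM in DMSO+FGF2. The tendon list had 4 of 7 members above the filter, of which Fmod and Egr1 rose, and its summed level of 2250 to 2397 CPM in BGJ398+FGF2 against 1105 to 1143 CPM in DMSO+FGF2 was almost all Fmod, while Tnmd was at 0. Adipocyte (4 tested), muscle (3) and endothelial (2) markers had no member past the test, with summed levels of 21 to 29.2, 8.38 to 9.2 and 2.70 to 4.14 CPM in BGJ398+FGF2, against 20 to 22.9, 7.3 to 9.33 and 1.33 to 2.05 CPM in DMSO+FGF2.

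Axon guidance genes were evenly split, with 8 of 28 higher and 8 lower, and 5 lower without DMSO+FGF2 replicate 2. Sema7a, a membrane semaphorin that binds integrins, had 4.21, 5.38 and 4.31 CPM in the BGJ398+FGF2 libraries, against 16.2, 16.1 and 14.6 CPM in the DMSO+FGF2 libraries (−1.76 ± 0.12, adjusted p = 4.78e-07). Sema5a and the ephrin gene Efnb2 fell, with log2 fold changes of −1.28 ± 0.13 and −0.76 ± 0.08, and Slit3, a secreted factor that couples bone to vessels in mice, rose by 1.25 ± 0.13. Of 13 cadherin and gap junction genes 5 rose and 1 fell, among them Cdh2 (0.63 ± 0.06), Cdh11 (0.32 ± 0.06), Cdh3 (0.79 ± 0.10) and Pcdh18 (0.47 ± 0.06). Cp, the copper oxidase ceruloplasmin, had 45.3, 37.5 and 42.8 CPM in the BGJ398+FGF2 libraries, against 144, 137 and 148 CPM in the DMSO+FGF2 libraries (−1.77 ± 0.08, adjusted p = 9.82e-09). The metal-binding Mt1 and Mt2 fell, with log2 fold changes of −0.66 ± 0.13 and −1.03 ± 0.15, and the iron exporter gene Slc40a1 rose by 0.58 ± 0.11. In that list of 21 genes 3 rose and 4 fell, beside 10.8% higher and 11.4% lower over all genes tested. The 4 became 9 without BGJ398+FGF2 replicate 2 and 10 without the 3 deviating libraries.

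Among lipid synthesis genes more fell than rose, and proliferation genes were mixed. Of 31 cholesterol and fatty acid genes 11 fell and 1 rose, with 6 falling when BGJ398+FGF2 replicate 1 was left out and 7 when DMSO+FGF2 replicate 3 was. Fdps, which makes farnesyl pyrophosphate, fell, with a log2 fold change of −0.38 ± 0.06, Mvd one of −0.48 ± 0.10 and the desaturase Scd1 one of −0.37 ± 0.07, while Cyp51 rose by 0.26 ± 0.05, a call lost with length-scaled TPM. Of 36 cell cycle genes 7 rose and 4 fell, beside 10.8% higher and 11.4% lower over all genes tested. The 7 became 3 when BGJ398+FGF2 replicate 1 was left out and 4 when DMSO+FGF2 replicate 3 was. Mki67, a proliferation marker, did not pass at −0.02 ± 0.13, while Tk1 and Cdc6, of DNA synthesis, fell, with log2 fold changes of −0.45 ± 0.07 and −0.34 ± 0.05 and the ribonucleotide reductase genes Rrm1 and Rrm2 were at 0.18 ± 0.04 and 0.27 ± 0.06. Of 31 apoptosis and p53 genes 5 rose and 2 fell. The 7 that passed are near the share of 22.2% over all genes tested. The 5 became 2 without DMSO+FGF2 replicate 1 or 3 and 3 without BGJ398+FGF2 replicate 1. The polo-like kinase gene Plk2 was at 0.65 ± 0.05, the membrane gene Perp at 0.75 ± 0.15, Bmf at 0.31 ± 0.09 and Casp12 at −0.24 ± 0.06. Bmf lost its call without DMSO+FGF2 replicate 1 (adjusted p = 0.0726), DMSO+FGF2 replicate 3 (0.0736) or BGJ398+FGF2 replicate 3 (0.083), and Casp12 without DMSO+FGF2 replicate 2 (0.0512) or BGJ398+FGF2 replicate 3 (0.0581).

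Mitochondrially encoded genes had 3 of 13 members higher and 1 lower, beside 10.8% higher and 11.4% lower over all genes tested. The 3 higher members became 1 when DMSO+FGF2 replicate 3 was left out. They became 6 without BGJ398+FGF2 replicate 3 or without BGJ398 replicate 1, and 5 without the 3 deviating libraries. mt-Nd1 rose by 0.31 ± 0.08, a call lost without DMSO+FGF2 replicate 3 (adjusted p = 0.067). mt-Nd6 was at 0.29 ± 0.09, a call lost when either of DMSO+FGF2 replicates 1 and 3 or of BGJ398+FGF2 replicates 1 and 2 was left out (adjusted p = 0.0777 to 0.117), and mt-Atp8 at −0.94 ± 0.17. mt-Co3, at 0.65 ± 0.15, shares 99.9% of its 31-base words with other genes and is uncertain. The same holds for Hmga1 (62.1% shared), a chromatin protein gene at −1.81 ± 0.10, and for Rps12-ps3, a near-copy of a ribosomal protein gene that was listed at 0 in the 3 DMSO+FGF2 libraries and at 92.0, 93.5 and 62.4 CPM in the BGJ398+FGF2 libraries. The call of Rps12-ps3 was lost when any 1 of the DMSO+FGF2 libraries was left out (adjusted p = 0.0577 to 0.0615). Hmga2, a related chromatin gene of growing mesenchyme, had 21.3, 19.5 and 20.3 CPM in the BGJ398+FGF2 libraries, against 66.4, 63.2 and 65.1 CPM in the DMSO+FGF2 libraries (−1.67 ± 0.07, adjusted p = 9.82e-09). Cda, cytidine deaminase, and Avil, an actin-binding protein gene, fell, with log2 fold changes of −1.82 ± 0.14 and −1.48 ± 0.18.

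Without FGF2 the inhibitor was compared with its vehicle in the same fit. Between 3 BGJ398 libraries and 3 DMSO libraries without FGF2, 41 genes passed (0.327%), 19 higher (0.151%) and 22 lower (0.175%), and 2 of them (0.0159%) by at least 2-fold. Of these 41, 33 also passed with FGF2 (80.5% of the 41 and 1.19% of the 2782), 31 of them in the same direction. The count of 41 was unstable: it was 14, 9 and 9 without DMSO replicate 1, 2 and 3, it was 27, 14 and 11 without BGJ398 replicate 1, 2 and 3, and 26 without DMSO+FGF2 replicate 1 or 3. It was 104 without BGJ398+FGF2 replicate 2, 149 by DESeq2 and 730 without the 3 deviating libraries. ERK feedback genes were among those that passed, with Etv5 at 9.63, 10.6 and 9.70 CPM in the BGJ398 libraries, against 17.8, 14.8 and 15.4 CPM in the DMSO libraries (−0.68 ± 0.10, adjusted p = 0.00951). Of the osteoblast list 3 rose without FGF2 and none fell, against 13 and 1 with it. Alpl had 17.7, 18.5 and 20.2 CPM in the BGJ398 libraries, against 12.4, 11.8 and 11.9 CPM in the DMSO libraries, a log2 fold change of 0.65 ± 0.10, adjusted p = 0.0165. Of 31 cholesterol genes 6 fell without FGF2. Of 26 unfolded protein response genes and 35 glycolysis genes, none passed there. The median log2 fold changes of these 2 lists without FGF2 were 0.0054 and −0.201, beside 0.00272 over all genes tested.

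Whether the inhibitor did more with FGF2 than without it was tested as a difference of the log2 fold changes. This difference passed for 532 of 12542 genes (4.24%), 250 positive (1.99%) and 282 negative (2.25%). The count was 328 without DMSO replicate 2, 337 without DMSO replicate 3, 956 without BGJ398+FGF2 replicate 2 and 1038 without the 3 deviating libraries. Of the called protein-coding genes that averaged 5 CPM or more over the 6 libraries, Alpl had the largest positive difference, 3.07 ± 0.16, adjusted p = 5.51e-07. Pappa2 had 57.0, 60.0 and 57.3 CPM in the BGJ398 libraries, against 82.9, 75.2 and 66.6 CPM in the DMSO libraries, a log2 fold change of −0.37 ± 0.11 that did not pass, beside 1.58 ± 0.12 with FGF2, and differed by 1.95 ± 0.17, adjusted p = 2.26e-05. Npnt, Col27a1 and Postn differed by 1.82 ± 0.12, 1.65 ± 0.22 and 1.55 ± 0.09. On the negative side Tnfrsf9 averaged 31.3 ± 1.7 CPM in BGJ398 and 32.4 ± 2.7 CPM in DMSO and differed by −1.80 ± 0.16, adjusted p = 2.26e-05. Sema7a, Zbp1, Hmga1 and Msln, the gene of the surface protein mesothelin, differed by −1.78 ± 0.17, −1.61 ± 0.27, −1.48 ± 0.13 and −1.39 ± 0.12.

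By list, the difference passed for 10 positive and 1 negative of 22 osteoblast genes, for 10 negative of 26 unfolded protein response genes, for 1 positive and 4 negative of 35 glycolysis genes, and for none of 31 cholesterol genes. In the ERK list it passed for 3 positive and 4 negative of 31. The log2 fold changes of feedback genes with and without FGF2 were, in this order, Etv5 −0.85 ± 0.10 and −0.68 ± 0.10, Etv4 −1.25 ± 0.23 and −0.73 ± 0.23, Dusp6 −0.80 ± 0.13 and −0.44 ± 0.13, and Spry4 −1.24 ± 0.35 and −1.14 ± 0.37. Their differences, −0.17 ± 0.13, −0.52 ± 0.33, −0.36 ± 0.18 and −0.10 ± 0.53, did not pass (adjusted p = 0.575, 0.464, 0.34 and 0.957), which does not show them equal. Dusp4 was an exception, with a difference of −1.21 ± 0.22, adjusted p = 0.00647.

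**Figure D4:**
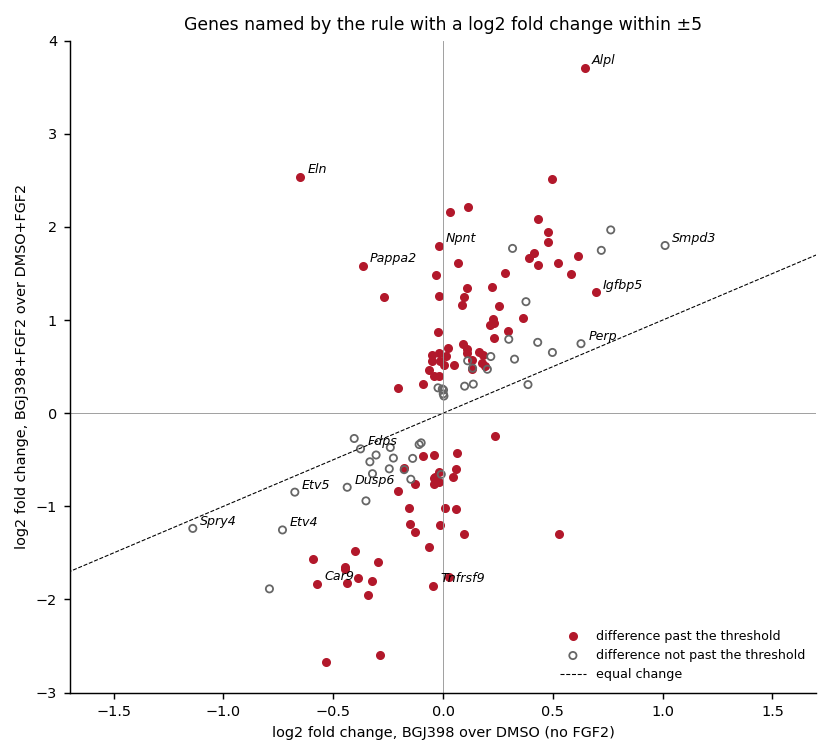
Each point is 1 gene named by the rule, with the log2 fold change of BGJ398 over DMSO without FGF2 on the horizontal axis and of BGJ398+FGF2 over DMSO+FGF2 on the vertical axis. Filled points passed the test of the difference, open points did not, and the dashed line marks equal change. Alpl lies at 0.65 and 3.71, and Spry4 at −1.14 and −1.24. Genes beyond ±5 are not drawn.

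Set against DMSO without FGF2, the BGJ398+FGF2 libraries differed in 92 genes (0.734%), 44 higher (0.351%) and 48 lower (0.383%). The count was 17, 14 and 11 without DMSO replicate 1, 2 and 3, it was 50 and 40 without BGJ398 replicate 2 and 3, 48 and 46 without DMSO+FGF2 replicate 1 and 3, and 25 without BGJ398+FGF2 replicate 1. Without the 3 deviating libraries it was 861. This comparison shares the BGJ398+FGF2 libraries with the main one, so its results are not independent of the main ones. Col1a1 had a mean of 9861 ± 890.3 CPM in BGJ398+FGF2 and 9485 ± 360.2 CPM in DMSO. Tnfrsf9 stood at 33.5 ± 5.6 CPM in BGJ398+FGF2 and 32.4 ± 2.7 CPM in DMSO, and Hspa5 at 766 ± 54 CPM in BGJ398+FGF2 and 719 ± 51 CPM in DMSO. These 3 did not pass (adjusted p = 0.847, 0.904 and 0.646), which does not show them equal to their level in DMSO. Eln was lower in BGJ398+FGF2 than in DMSO, with a log2 fold change of −1.12 ± 0.19, adjusted p = 0.0196, and Alpl higher by 0.54 ± 0.10, adjusted p = 0.0306. Etv5 was also lower than in DMSO, at −0.73 ± 0.10, adjusted p = 0.00527.

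The second readout was the share of a gene's RNA taken by each of its transcripts, as a percentage of the gene's TPM. Of 6732 genes with at least 2 transcripts above the filter (18628 transcripts), 75 passed edgeR's gene-level test of unequal change (1.11%), and 945 had an unadjusted p under 0.05. In 50 of the 75 (0.743% of all tested) a transcript moved by at least 10 percentage points without overlap of the groups. Of the 75 genes 22.7% also passed for level, beside 22.5% of all genes tested for shares. The count was 22 with Simes' combination of the transcript tests, 44 without DMSO+FGF2 replicate 1, 118 without BGJ398+FGF2 replicate 3 and 184 without the 3 deviating libraries. The genes called also changed. Of the 75, those still tested were called again in 31 of 73 without DMSO+FGF2 replicate 1 and 27 of 72 without DMSO+FGF2 replicate 3. Without BGJ398+FGF2 replicate 3 it was 48 of 75, and without the 3 deviating libraries 41 of 73. With a minimum of 30 reads it was 71 of 72. Without FGF2 the inhibitor had 25 such genes (0.371%). The files hold 1 estimate per transcript with no error of assignment, so shares of transcripts that differ by few bases are less certain than gene levels.

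The 8 genes with the largest moves were Chrnb2, Coro2a, Abca3, Cryz, Slc37a4, Accs, Disp1 and Nr4a1. In 6 of them a transcript was listed at 0 in all 3 libraries of 1 group, which can be a failed estimate. Accs, for example, had its transcript Accs-202 at 0% in the 3 BGJ398+FGF2 libraries, against 32.6%, 36.3% and 31.6% in the DMSO+FGF2 libraries, and Accs-201 at 43.8%, 36.3% and 30.6% in the BGJ398+FGF2 libraries, against 1.96%, 1.92% and 4.96% in the DMSO+FGF2 libraries. Its gene-level adjusted p was 3.1e-07, and it passed in all 14 other settings. Most of the others were less stable over the settings that tested them. Chrnb2 kept its call in 3 of 12, Abca3 in 3 of 13, Cryz and Disp1 in 5 of 14 each and Slc37a4 in 6 of 14. Nr4a1 kept its call in 12 of 14. Coro2a kept its call in 8 of 8, but was not tested in those that left out a DMSO+FGF2 library.

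Nr4a1, the gene of the nuclear receptor NUR77, an immediate early factor, used different first exons. Its transcript Nr4a1-202 took 9.60%, 21.8% and 13.3% in the BGJ398+FGF2 libraries, against 40.2%, 32.2% and 60.95% in the DMSO+FGF2 libraries. Nr4a1-201 took 86.3%, 74.9% and 79.5% in the BGJ398+FGF2 libraries, against 55.1%, 67.8% and 39.05% in the DMSO+FGF2 libraries. The vehicle libraries with FGF2 varied widely (adjusted p = 0.0119), and 12 of 14 other settings kept the call. Both transcripts code for the same 1803 bases and differ in noncoding first exons. The level of the gene, named here for its shares, also rose, by 0.95 ± 0.11 on the log2 scale.

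Limk2, which encodes a kinase of the actin regulator cofilin, was picked out after its values were seen because 13 of 14 other settings kept its call. Limk2-203 took 50.1%, 53.3% and 43.6% in the BGJ398+FGF2 libraries, against 35.6%, 35.7% and 33.2% in the DMSO+FGF2 libraries. Limk2-201 took 19.1%, 23.2% and 24.5% in the BGJ398+FGF2 libraries, against 36.8%, 35.7% and 31.03% in the DMSO+FGF2 libraries (gene-level adjusted p = 0.000583). The inhibitor libraries held more of Limk2-203 and less of Limk2-201 than any vehicle library. The transcripts differ at their start: Limk2-201 opens with 2 exons that Limk2-203 lacks, the 2nd wholly coding with 100 bases, and Limk2-203 with a first exon of its own with 53 coding bases. Exon 2 of Limk2-201, shown because it is the coding sequence whose share fell, lies on chromosome 11 and reads in GENCODE M21 (build GRCm38):
Limk2-201 exon 2: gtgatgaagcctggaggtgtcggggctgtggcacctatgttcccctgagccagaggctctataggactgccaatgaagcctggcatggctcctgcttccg
The combined RNA of the gene was at a log2 fold change of 0.20 ± 0.06, adjusted p = 0.0249.

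Of the 54 genes of a panel known for alternative transcripts, 3 passed: Postn, Tpm1 and Enah. Postn-203 took 19.8%, 17.7% and 19.2% in the BGJ398+FGF2 libraries, against 22.7%, 26.02% and 26.9% in the DMSO+FGF2 libraries, while the shorter Postn-204 took 41.1%, 43.2% and 41.8% in the BGJ398+FGF2 libraries, against 40.1%, 38.9% and 33.8% in the DMSO+FGF2 libraries. Postn-203 alone of the 3 holds exon 17 of 81 bases (adjusted p = 0.0367). That call held in 4 of 14 other settings, with adjusted p of 0.0219 to 1. The exon, one of the alternative ones near the carboxyl end of periostin, is on chromosome 3 and reads:
Postn-203 exon 17: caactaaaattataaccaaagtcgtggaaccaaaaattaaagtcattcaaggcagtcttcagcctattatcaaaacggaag
Enah-210, a form of the actin regulator Mena with its own first exon, took 9.88%, 7.51% and 6.37% in the BGJ398+FGF2 libraries, against 16.5%, 17.2% and 18.9% in the DMSO+FGF2 libraries (adjusted p = 0.0157, kept in 10 of 14 other settings). Tpm1-216 of tropomyosin took 55.7%, 57.1% and 52.6% in the BGJ398+FGF2 libraries, against 42.3%, 45.8% and 48.8% in the DMSO+FGF2 libraries and Tpm1-211, which has another first exon, 19.8%, 19.96% and 18.6% in BGJ398+FGF2 against 26.7%, 27.4% and 24.6% in DMSO+FGF2 (adjusted p = 0.0309, kept in 7 of 14).

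Hyou1, noted after its values were seen, combined a fall in level with a shift between forms. Hyou1-206 took 7.89%, 7.94% and 7.78% in the BGJ398+FGF2 libraries, against 26.6%, 28.2% and 26.6% in the DMSO+FGF2 libraries. Hyou1-201 took 79.4%, 86.4% and 81.6% in the BGJ398+FGF2 libraries, against 54.2%, 56.5% and 55.1% in the DMSO+FGF2 libraries. The forms code for the same 2997 bases and differ in the extent of the noncoding first exon and of the last exon. The gene-level call (adjusted p = 0.029) held in 5 of 14 other settings. No difference passed for the receptors or for matrix and vessel genes known for splicing: Fgfr1 (adjusted p = 0.452), Fgfr2 (1), Fgfr3 (0.662), Fn1 (0.861) and Vegfa (0.367).

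**Figure D5:**
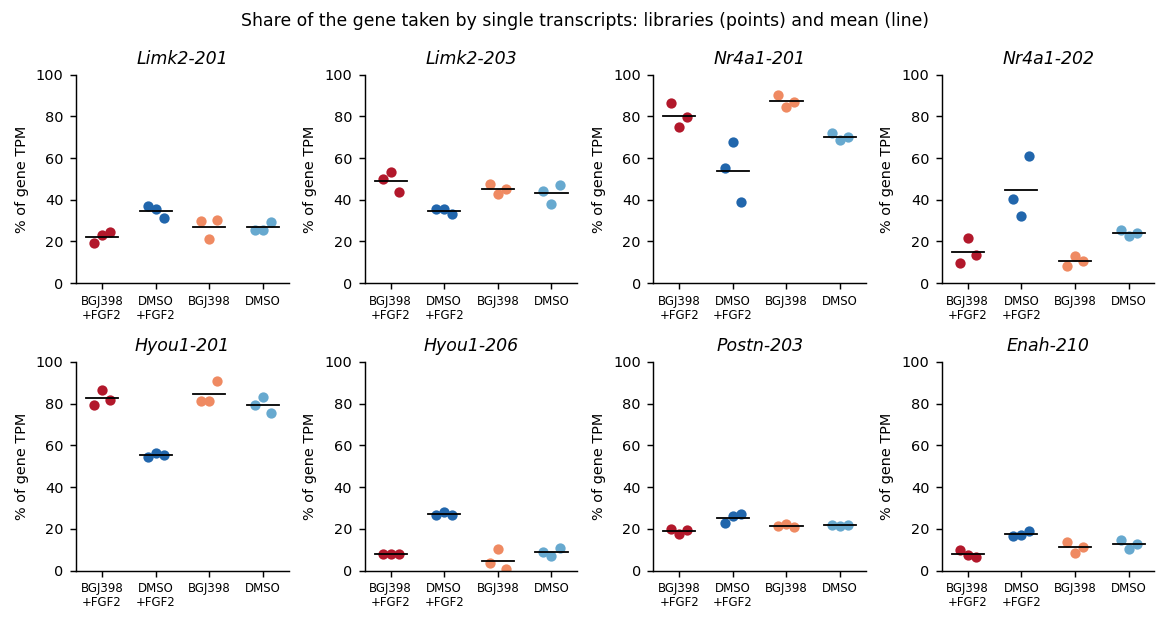
Share of the TPM of a gene, in percent from 0 to 100, taken by 8 transcripts, with 1 point per library and a line at the mean of 3 libraries, in the order BGJ398+FGF2, DMSO+FGF2, BGJ398 and DMSO. For Hyou1 the transcript Hyou1-206 shows 7.78% to 7.94% against 26.6% to 28.2%.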

How the data were processed

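RNA of 12 libraries was quantified per transcript with Salmon on build GRCm39, per the submitters' processing notes. Which version, read trimming, strand setting or bias model was used is not given in the sources used here. The files deposited hold, per the file headers, expected counts (reads estimated per transcript, not scaled), TPM (scaled for length and library by the authors' run) and effective lengths. Transcript identifiers were matched to GENCODE M21 (114656 of 116178). Reads of the 1522 others, 0.499% to 0.641% of a library, were left out. Gene totals are sums of the expected counts, rounded to whole reads.

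Genes were tested with edgeR 4.0.16 (R 4.3.3): filterByExpr, TMM, and quasi-likelihood tests on 1 model of 4 group means over 12 libraries (8 residual degrees of freedom, biological coefficient of variation 8.49%). Adjusted p-values are Benjamini-Hochberg over all genes tested, with a threshold of 0.05, all 2-sided. CPM are scaled by TMM, the error of a mean is the SD over 3 libraries, and that of a log2 fold change is its size over the square root of F. Transcript shares were tested with edgeR's diffSpliceDGE on transcripts with at least 10 reads in at least 3 libraries and at least 5% of their gene. Alternatives used DESeq2 1.42.0 and limma 3.58.1, and the procedures were tested on simulated data. Replicates of a group differed by 3.26 to 25.5 times the counting noise, so none was a duplicate.

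The genes named are the 12 highest and 12 lowest log2 fold changes among called protein-coding genes with at least 5 CPM, an assigned symbol (no Gm or Rik name) and no overlap of the groups, up to 4 called members of each of 36 lists by smallest p, 21 genes whatever their test, 5 and 5 for the difference with and without FGF2, and 8 for shares. The members and lists were chosen with earlier results of these data known. Shared sequence is the share of 31-base words of a gene found in other genes of GENCODE M21.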

Additional observations from a re-analysis of the deposited data

Results flagged for a closer look

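The inhibitor's change differed with and without FGF2, by the test of that difference, for 532 genes. Among called protein-coding genes with an assigned symbol, a mean of at least 5 CPM over the 6 libraries and no overlap of the groups with FGF2, the 5 most positive and 5 most negative were Alpl at 3.07, Pappa2 at 1.95, Npnt at 1.82, Col27a1 at 1.65 and Postn at 1.55 on the positive side, and Tnfrsf9 at −1.80, Sema7a at −1.78, Zbp1 at −1.61, Hmga1 at −1.48 and Msln at −1.39 on the negative side, all as differences of log2 fold changes. All 10 kept their sign and their call in the 22 other settings in which the difference was fitted.

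Reads of transcripts with no GENCODE M21 match, which no test used, took a larger share of the DMSO+FGF2 libraries than of the others. They made up 0.541% ± 0.009 of reads in BGJ398+FGF2 and 0.618% ± 0.022 in DMSO+FGF2, beside 0.516% ± 0.017 in BGJ398 and 0.536% ± 0.017 in DMSO (SD, n = 3 each), with no test made.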

How the results depend on the processing

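Of the 136 genes named by the rule that could be tested, 123 kept their sign and their side of the threshold in every setting that tested them, and the log2 fold change of Phex, not called, reversed to −0.49 with length-scaled TPM. The count of genes for BGJ398+FGF2 against DMSO+FGF2 was 1794 with the 6 libraries alone, 1813 with length-scaled TPM and 1948 to 3345 when 1 library was left out. It was 3719 with a length offset, 1954 higher and 1765 lower. Replicate numbers did not meet the rule for pairing, a correlation of deviations over 0.1 in every same-numbered pair: these were 0.0786, 0.239 and 0.0934, beside −0.24 to 0.179 in differently numbered pairs, and the fit with a replicate block called 2565 genes, 1235 higher and 1330 lower, with 21 for BGJ398 without FGF2 and 36 for BGJ398+FGF2 against DMSO.

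For BGJ398 against DMSO without FGF2 the count of 41 became 149 by DESeq2, 83 without a filter, 108 with a length offset, 12 with length-scaled TPM, 730 without the 3 deviating libraries (chosen after seeing the data) and 9 to 104 with 1 library left out. For the difference with and without FGF2 the values were 821 by DESeq2, 920 with a length offset, 347 with length-scaled TPM, 1038 without those 3 libraries and 328 to 956 with 1 left out. For BGJ398+FGF2 against DMSO they were 313 by DESeq2, 173 without a filter, 240 with a length offset, 40 with length-scaled TPM, 861 without the 3 libraries and 11 to 114 with 1 left out. For transcript shares they were 22 by Simes' combination, 184 without the 3 libraries and 44 to 118 with 1 left out. The cause of these shifts was not tested. Other scalings moved the median log2 fold change of all genes by less than 0.1. At depths of 18951710 to 27716975 reads, scarce members such as Dmp1, with 26 reads in all, could not be tested.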
